A study of Mus musculus with 6 samples.

Results

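The 8 genes Slc2a2, Gckr, Pfkl, Pfkfb1, Pklr, Khk, Mlxipl and Txnip were followed in mouse liver. These genes act in hepatic hexose transport, glycolysis or fructose metabolism, or answer to sugars. They were chosen by name as a set of glycolysis, fructose and carbohydrate response genes, and each was found once among the 54532 genes of the count table. All 8 were among the 13377 genes that had enough reads to be tested. Liver RNA was sequenced from 6 insulin-resistant (IR) male mice of the C57BL/6J strain, fed a high-fat diet that began at 8 weeks of age and lasted 6 weeks. After a 16 h fast, 3 mice received insulin intraperitoneally at 0.75 units per kg of body weight (IR insulin) and 3 received bovine serum albumin, the vehicle (IR vehicle), and both groups were studied after 6 h of treatment. The diet and the fast were therefore shared by both groups, and no chow-fed library was analysed here. Each library is 1 sample of its group, and the study describes 3 biologically independent mice per group. The labels do not say more of the animals.

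Glucose and fructose enter and leave hepatocytes through the facilitative transporter GLUT2, the product of Slc2a2. Inside the cell, the regulatory protein encoded by Gckr holds the hepatic hexokinase in the nucleus, and fructose releases that hold once ketohexokinase (Khk) has phosphorylated it. The liver subunit of phosphofructokinase 1 (Pfkl) and liver pyruvate kinase (Pklr) catalyse regulated steps of glycolysis. The bifunctional enzyme encoded by Pfkfb1 makes and removes fructose 2,6-bisphosphate, the activator of phosphofructokinase 1. ChREBP, the product of Mlxipl, is the transcription factor that sugar phosphates activate. It binds carbohydrate response elements (ChoRE) together with MLX, and Pklr and Txnip, which encodes an alpha-arrestin that limits glucose uptake, are textbook targets. The comparison asks how transcripts in insulin-resistant liver differed after insulin, and for these genes the answer bears on the carriers and enzymes that deliver carbon to fatty acid synthesis.

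Upstream sequence is shown for the gene that passed the study's criteria and for 3 genes of the ChREBP axis, so that the letters next to their starts can be read beside the levels. RefSeq start windows of 250 bases before and 50 bases after each start were available for all 8 genes, 13 windows in all (GRCm38.p6). Each line below gives the bases before the start on the plus strand, 5′ to 3′, cut where annotated exon of the same gene begins, with a searched motif in capitals.
Slc2a2, chr3:28697653-28697902: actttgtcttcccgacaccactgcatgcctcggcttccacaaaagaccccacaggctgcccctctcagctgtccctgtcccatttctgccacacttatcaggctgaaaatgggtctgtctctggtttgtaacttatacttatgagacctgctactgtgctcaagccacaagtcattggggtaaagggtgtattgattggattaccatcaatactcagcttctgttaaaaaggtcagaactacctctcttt
Pklr, chr3:89136373-89136571: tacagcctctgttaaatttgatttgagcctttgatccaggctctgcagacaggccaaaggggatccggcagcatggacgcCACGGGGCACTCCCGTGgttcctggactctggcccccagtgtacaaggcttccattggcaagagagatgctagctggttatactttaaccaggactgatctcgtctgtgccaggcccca
Txnip, chr3:96557707-96557956: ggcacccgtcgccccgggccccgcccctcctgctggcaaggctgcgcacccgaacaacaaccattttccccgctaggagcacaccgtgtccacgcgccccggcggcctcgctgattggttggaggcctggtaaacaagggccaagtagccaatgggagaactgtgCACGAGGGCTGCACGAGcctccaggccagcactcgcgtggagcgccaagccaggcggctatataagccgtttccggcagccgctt
Mlxipl, chr5:135089640-135089889: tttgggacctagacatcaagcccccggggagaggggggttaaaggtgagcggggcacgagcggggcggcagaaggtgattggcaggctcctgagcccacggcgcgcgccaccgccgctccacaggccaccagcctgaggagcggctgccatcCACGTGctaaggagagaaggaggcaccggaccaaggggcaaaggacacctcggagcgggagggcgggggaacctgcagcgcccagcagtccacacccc
The Pklr window printed holds a match to the ChoRE consensus, paired E box-like hexamers 5 bases apart, whose first base lies 170 bases before the RefSeq start. Matches on either strand occurred in 0.119% of the 32851 windows of this length. The Mlxipl window printed lies at the more upstream RefSeq start of that gene. It holds the canonical E box CACGTG, which can also be part of a ChoRE, starting 98 bases before that start. Khk carries the same hexamer 71 bases before its start, inside annotated Khk exon and therefore not printed. The E box was found in 7.15% of all windows. The Txnip window holds CACGAG followed 5 bases later by a second CACGAG, from 85 bases before the start. That pattern was searched for only after the sequence had been read. It was found in 1 of the 32851 windows, that of Txnip itself, so the count is not comparable with the shares above. The printed Txnip stretch is also exon of Gm15441, a gene on the opposite strand. The Slc2a2 window matched none of the motifs searched, nor did a second RefSeq window of Pklr or any window of Gckr, Pfkl or Pfkfb1. The window at the downstream start of Mlxipl (chr5:135106641-135106890) also matched none. Counts were per gene, so starts of the same gene were not told apart. These are matches of letters, and no binding was measured in these livers.

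The libraries held 18449986 to 21827619 counts, and every member had at least 247 reads in every library. The deposited counts were scaled to library size with TMM factors (CPM). IR vehicle replicate 2 stood apart from the other 5 libraries: it detected 16470 genes against 18389 to 18874, and its deviations followed the GC content of the transcripts, with log2 deviations changing by -1.13 for each 10 points of percent GC against -0.064 to 0.19 elsewhere. The 3 insulin libraries correlated with each other at Pearson's r of 0.980 to 0.985 over log2 CPM of genes, and the 3 vehicle libraries at 0.878 to 0.948. Hepatocyte marker genes summed to 81885 to 168545 CPM in the vehicle group and 68676 to 85759 CPM in the insulin group, the highest in vehicle replicate 2, and markers of muscle summed to under 0.1 CPM in every library. In bulk liver, fewer cells of a type and less RNA per cell cannot be told apart.

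By edgeR's quasi-likelihood test on all 13377 genes, 0 genes (0.0%) had a Benjamini-Hochberg adjusted p under 0.05, and the smallest adjusted p was 0.852. DESeq2 and voom with sample quality weights (called voom below) also gave 0 genes. The study's own criteria, a log2 fold change of 0.35 or more in size together with an unadjusted p below 0.05, were applied here to the edgeR fit. They were met by 383 genes (2.86%), which were all of the genes below that p, 134 of them higher (1.0%) and 249 lower (1.86%) after insulin. With DESeq2, the tool that the study used, 507 genes met the criteria, 148 higher and 359 lower. Of the 8 members, 1 met them, Slc2a2, which was lower. The share of calls that were higher depended on the scaling and the model: 35.0% by edgeR with TMM, 73.3% with library totals in place of TMM, 50.7% by voom and 19.5% with an offset for GC content. With library totals the median of all genes moved by 0.18 on the log2 scale, and members that then changed sign are named beside their values.

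**Figure D1:**
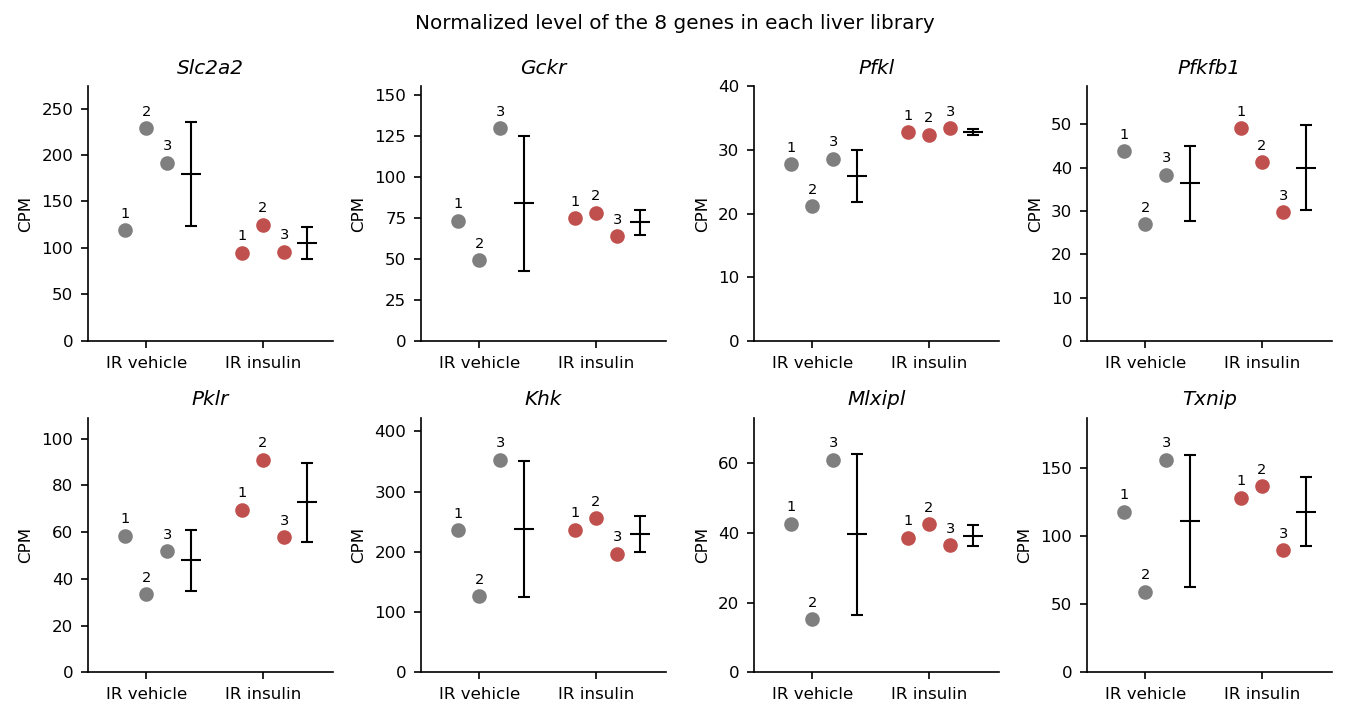
CPM of each of the 8 genes (vertical axes, from 0) in the 3 IR vehicle libraries (grey) and the 3 IR insulin libraries (red), numbered by replicate, with the mean and SD of each group as a bar. The groups of Pfkl do not overlap, Slc2a2 overlaps in 1 library of each group, and in Gckr, Khk, Mlxipl and Txnip all insulin values lie between vehicle replicates 2 and 3.

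Slc2a2 (chr3:28697903-28731359, plus strand, GRCm38), the hepatic hexose transporter, was measured at 119, 229 and 192 CPM in IR vehicle replicates 1, 2 and 3. It was at 94.9, 125 and 96.2 CPM in IR insulin replicates 1, 2 and 3. Insulin replicates 1 and 3 lay below every vehicle library, but insulin replicate 2 exceeded vehicle replicate 1, so the groups overlapped. The group means were 180 ± 55.6 and 105 ± 16.9 CPM (SD, n = 3 each), a log2 fold change of -0.77 ± 0.29 (SE) by edgeR, or 0.586-fold with a 95% interval of 0.367 to 0.934. Its unadjusted p from the edgeR fit was 0.0297 and its adjusted p 0.852, and it ranked 158 by p among all genes tested.

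The call of Slc2a2 was lost in several settings. Without vehicle replicate 2 the log2 fold change was -0.56 (edgeR unadjusted p 0.0545), without vehicle replicate 3 it was -0.72 (p 0.0567), and with the GC offset it was -0.54 (p 0.0667). Without insulin replicate 1 it was -0.69 (edgeR unadjusted p 0.109), and without insulin replicate 3 it was -0.70 (p 0.102). Without vehicle replicate 1 it was -0.99 (edgeR unadjusted p 0.00646). Over 17 alternatives its value ran from -0.99 to -0.38 and was negative in all of them, and it met the study's criteria in 8. Slc2a2 had the lowest GC content of the members (41.7%) and was the single member that vehicle replicate 2 held above the median of the other libraries. Erythroid markers moved the same way, with 4 of the 5 tested lower past the study's criteria and sums of 413 to 1588 CPM in IR vehicle, the highest in replicate 2, and 312 to 478 CPM in IR insulin. Their part in the result was not tested. Slc2a2 overlaps 1700112D23Rik on the opposite strand, and the sources used here do not say whether counting used strand.

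Of the 15 other hexose transporters and glucose 6-phosphate carriers listed, 9 were tested and 0 met the study's criteria, with 5 higher, 4 lower and a median log2 fold change of 0.14 against -0.017 over all genes tested. The 2 with the smallest p were Slc2a6, a lysosomal hexose transporter, at 0.99 ± 0.66 (SE, edgeR unadjusted p 0.172), and Slc37a2, a sugar phosphate exchanger, at 0.47 ± 0.44 (p 0.318). Both had overlapping groups, and the values were 0.48 for Slc2a6 without vehicle replicate 3 and 0.22 for Slc37a2 without vehicle replicate 2.

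Gckr (chr5:31297443-31327314, plus strand), the regulator of the hepatic hexokinase, was at 73.3, 49.2 and 129 CPM in the vehicle libraries. The insulin libraries held 74.9, 78.1 and 63.7 CPM. All 3 insulin values lay between vehicle replicates 2 and 3, close to vehicle replicate 1. The log2 fold change was -0.22 ± 0.35 (SE; edgeR unadjusted p 0.553, adjusted p 0.879), and its sign turned to 0.24 when vehicle replicate 3 was left out.

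Pfkl (chr10:77986947-78010083, minus strand), the liver subunit of phosphofructokinase 1, was measured at 27.8, 21.2 and 28.7 CPM in IR vehicle. It was at 32.8, 32.4 and 33.4 CPM in IR insulin. It was the one member whose groups did not overlap, all insulin libraries being higher, as they were for 6.25% of all genes tested, while 6.04% did not overlap with insulin lower. The insulin libraries lay within a 1.03-fold range. The edgeR log2 fold change was 0.35 ± 0.21 (SE), or 1.27-fold with a 95% interval of 0.902 to 1.79 and an unadjusted p of 0.146. With the GC offset the difference was -0.10, without vehicle replicate 2 it was 0.22, and with both steps it was 0.15. Pfkl has 57.1% GC and was lowest in vehicle replicate 2, where it deviated from the median of the others by -0.61 and the GC curve of all genes gave -1.12.

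Pfkfb1 (chrX:150588229-150643878, plus strand), the liver form of the bifunctional enzyme that sets fructose 2,6-bisphosphate, was at 43.8, 26.9 and 38.3 CPM after vehicle. After insulin it was at 49.0, 41.3 and 29.7 CPM. The ranges of the groups overlapped between 29.7 and 43.8 CPM, and the spread was alike, 1.63-fold in vehicle and 1.65-fold in insulin. The log2 fold change was 0.14 ± 0.28 (SE; edgeR unadjusted p 0.640), and it was -0.03 without vehicle replicate 2. Pfkfb1 overlaps Apex2 on the opposite strand.

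Pklr (chr3:89136142-89146784, plus strand), liver pyruvate kinase and the gene with the ChoRE match printed above, stood at 58.5, 33.4 and 51.9 CPM in IR vehicle. In IR insulin it stood at 69.5, 90.9 and 57.8 CPM. Insulin replicates 1 and 2 exceeded every vehicle library, and insulin replicate 3 lay just under vehicle replicate 1. The means were 47.9 ± 13.0 and 72.7 ± 16.8 CPM (SD, n = 3 each). By edgeR the log2 fold change was 0.60 ± 0.29 (SE), or 1.52-fold with a 95% interval of 0.955 to 2.41, and the unadjusted p of 0.0712 missed the study's threshold. It was positive in all 17 alternatives, from 0.34 to 0.77, and met the criteria in 0 of them. With the GC offset it was 0.37, and without vehicle replicate 2 it was 0.40. Pklr overlaps Hcn3 on the opposite strand, and its gene also encodes the red cell isozyme, the erythroid marker sums being those given with Slc2a2.

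Of the 29 other glycolytic enzymes listed, 26 were tested, 16 higher and 10 lower, with a median log2 fold change of 0.16. The study's criteria were met by 2, both higher: Hk1 and Pkm. That count was 4 without vehicle replicate 1, 0 without insulin replicate 1 or 3 and 1 without insulin replicate 2. Hk1, the hexokinase of most tissues other than hepatocytes, was at 2.06, 1.78 and 1.67 CPM in the vehicle group and at 3.33, 3.46 and 3.09 CPM in the insulin group. Its groups did not overlap, and its log2 fold change was 0.84 ± 0.31 (SE; edgeR unadjusted p 0.0261, adjusted p 0.852), which became 0.42 (p 0.275) with the GC offset. Leaving out any insulin library raised its edgeR unadjusted p to between 0.0554 and 0.0931. Pkm, the pyruvate kinase gene of muscle and most other tissues, was at 28.9, 15.3 and 19.7 CPM against 47.2, 28.7 and 32.7 CPM, a log2 fold change of 0.76 ± 0.31 (SE; edgeR unadjusted p 0.0409). Its groups overlapped in 1 library of each, and it met the criteria in 9 of 17 alternatives, with a p of 0.295 under the GC offset and of 0.0674, 0.0897, 0.176 and 0.0646 without vehicle replicates 2 and 3 and insulin replicates 1 and 3. Of the 6 Kupffer cell markers, 0 met the criteria, and they summed to 223 to 325 CPM in the vehicle group and 242 to 483 CPM in the insulin group, the highest in insulin replicate 1, where Pkm was also highest. The 5 adipocyte markers, of which Lep was at 0 in every library and 1 was tested without meeting the criteria, summed to 0.191 to 63.6 CPM in IR vehicle and 25.0 to 154 CPM in IR insulin, again highest in insulin replicate 1. The part of either marker list in the result was not tested. Gapdh, singled out after its values were seen, ran from 0.246 to 53.4 CPM in IR vehicle and from 1.98 to 124 CPM in IR insulin. It has many near-identical pseudogene copies, so its counts are uncertain.

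Khk (chr5:30921431-30931248, plus strand), the entry enzyme of fructose metabolism, was measured at 236, 126 and 352 CPM in IR vehicle. In IR insulin it was at 237, 256 and 197 CPM. The insulin libraries lay inside the vehicle range, which spanned 2.79-fold against 1.30-fold after insulin. The group means were 238 ± 113 and 230 ± 30.2 CPM (SD, n = 3 each), and the log2 fold change was -0.05 ± 0.37 (SE; edgeR unadjusted p 0.890). The 95% interval of 0.536-fold to 1.74-fold leaves room for changes in either direction. The direction changed with the libraries: without vehicle replicate 2 it was -0.35, without vehicle replicate 3 it was 0.34, without insulin replicate 3 it was 0.056, with library totals it was 0.09, and with the GC offset it was -0.49 (edgeR unadjusted p 0.0537). Khk has the highest GC content of the members, 59.4%.

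Among the 17 other genes of fructose and polyol metabolism, 16 were tested and 0 met the study's criteria. They split into 10 higher and 6 lower, with a median log2 fold change of 0.07. The smallest p belonged to Sord, sorbitol dehydrogenase, which makes fructose from sorbitol, at 1229 ± 412 CPM after vehicle and 944 ± 128 CPM after insulin (SD, n = 3 each), a log2 fold change of -0.38 ± 0.31 (SE; edgeR unadjusted p 0.25). Adh5, an alcohol dehydrogenase, came next at -0.27 ± 0.23 (SE; edgeR unadjusted p 0.278). Without vehicle replicate 2, which held 1692 CPM of Sord, the difference in Sord was -0.07.

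Mlxipl (chr5:135089890-135138382, plus strand), the gene of ChREBP, was at 42.6, 15.2 and 60.9 CPM in IR vehicle. It was at 38.6, 42.5 and 36.4 CPM in IR insulin. Its vehicle libraries spanned 4.01-fold, the widest of the 8 genes, and its insulin libraries 1.17-fold. The log2 fold change was -0.01 ± 0.44 (SE; edgeR unadjusted p 0.975, adjusted p 0.994). Its 95% interval ran from 0.488-fold to 2.01-fold, so differences within that range were not excluded by these libraries. Without vehicle replicate 2 the log2 fold change was -0.40 and without vehicle replicate 3 it was 0.44, and with library totals it was 0.12. It met the study's criteria in 1 of 17 alternatives, at -0.46 (edgeR unadjusted p 0.0414), when vehicle replicate 2 was left out and the GC offset applied together, a combination chosen after the data were seen. Gm43500 overlaps Mlxipl on the opposite strand.

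Txnip (chr3:96557957-96561883, plus strand), the alpha-arrestin that follows glucose supply, was at 118, 59.3 and 156 CPM in IR vehicle. It was at 128, 137 and 89.6 CPM in IR insulin. Insulin values again lay between vehicle replicates 2 and 3. The log2 fold change was 0.09 ± 0.37 (SE; edgeR unadjusted p 0.815), which moved to -0.21 when vehicle replicate 2 was left out and to 0.41 when replicate 3 was. The 95% interval was 0.591-fold to 1.91-fold. Txnip lies within Gm15441 on the opposite strand, whose reads cannot be told apart from its own if strand was not used.

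**Figure D2:**
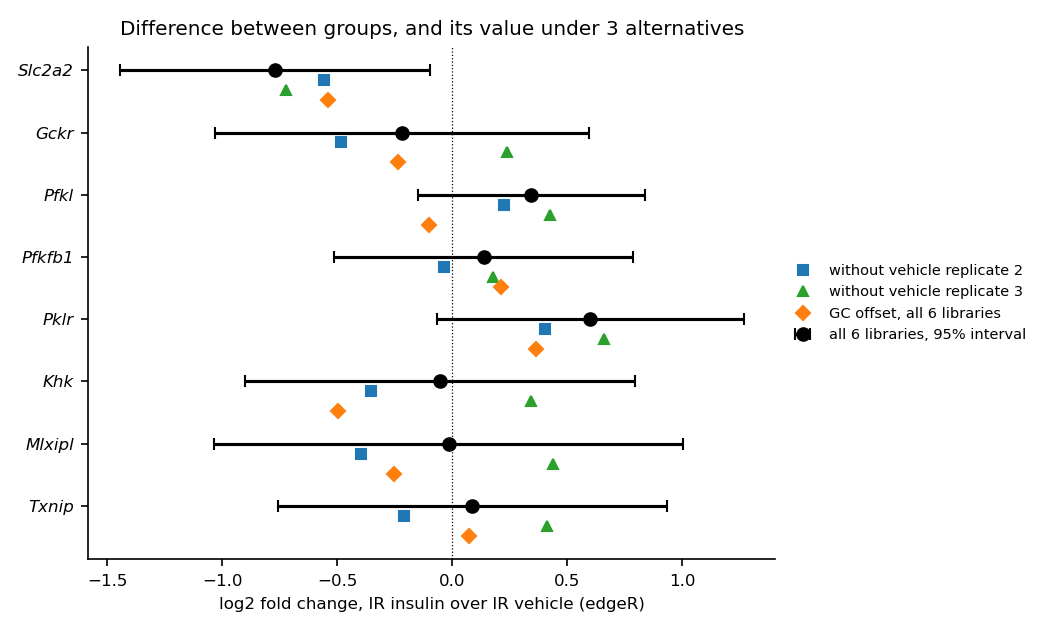
Log2 fold change of each gene, IR insulin over IR vehicle, from edgeR (horizontal axis), with its 95% interval over all 6 libraries (black) and its value without vehicle replicate 2 (blue squares), without vehicle replicate 3 (green triangles) and with a GC offset (orange diamonds). The interval of Slc2a2 ends at -0.098 and those of the other 7 genes cross 0. Gckr, Pfkfb1, Khk, Mlxipl and Txnip lie on opposite sides of 0 according to which of the 2 vehicle libraries was left out, Pfkfb1 by the least (-0.035 and 0.18).

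Partners of ChREBP and other alpha-arrestins were listed as 16 genes, of which 15 were found and tested, 10 higher and 5 lower, with 0 past the study's criteria and a median log2 fold change of 0.10. Mlx, the obligate partner of ChREBP, was at 36.2, 42.2 and 38.1 CPM in the vehicle group and 31.2, 35.2 and 32.9 CPM in the insulin group, groups that did not overlap, with a log2 fold change of -0.23 ± 0.20 (SE; edgeR unadjusted p 0.282). It is named here after its values were seen. The smallest p of this list were those of Ppp2ca, the catalytic subunit of protein phosphatase 2A, at -0.44 ± 0.26 (SE; edgeR unadjusted p 0.133), and of Mxd4, another basic helix-loop-helix protein of the MLX network, at 0.51 ± 0.31 (SE; p 0.140). Without vehicle replicate 2 they were -0.16 and 0.24.

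Known ChREBP targets other than the 8 genes numbered 27, of which 26 were tested, 11 higher and 15 lower, with a median log2 fold change of -0.07. The study's criteria were met by 2, both higher, Fgf21 and Fasn. Fgf21, the gene of a hepatic hormone that sugars induce, was at 6.66, 2.70 and 5.87 CPM in the vehicle group and at 9.91, 8.49 and 13.1 CPM in the insulin group. Its groups did not overlap, and its log2 fold change of 1.04 ± 0.38 (SE; edgeR unadjusted p 0.0247, adjusted p 0.852) met the criteria in 15 of 17 alternatives. It was 0.82 (p 0.0114) with the GC offset, and its unadjusted p was 0.0548 by voom and 0.0953 without insulin replicate 3. Fasn, fatty acid synthase, was at 78.1, 39.6 and 70.2 CPM in the vehicle group and at 102, 113 and 99.3 CPM in the insulin group, with a log2 fold change of 0.74 ± 0.29 (SE; edgeR unadjusted p 0.0327) that was 0.32 (p 0.131) with the GC offset. The groups of Fasn did not overlap, and it met the criteria in 12 of 17 alternatives. Without vehicle replicate 2 its log2 fold change was 0.50 (edgeR unadjusted p 0.0134). The edgeR unadjusted p of Fasn was 0.0662 to 0.1003 when any insulin library was left out. The number of listed targets past the criteria was 5 without vehicle replicate 2, 4 without vehicle replicate 1 or 3 and with no filter on low counts, and 1 without any single insulin library. Mlxipl, Pklr and Txnip did not meet the criteria with all 6 libraries, and whether these genes differed from each other in their response was not tested.

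The branches that carry hexose and pyruvate carbon onward were read in the same way. Of the 13 pentose phosphate genes, 12 were tested, 6 higher and 6 lower, with 0 past the study's criteria and a median log2 fold change of 0.0036. The smallest p were those of Prps1, which makes phosphoribosyl pyrophosphate, at -0.38 ± 0.22 (SE; edgeR unadjusted p 0.117), and Pgd, 6-phosphogluconate dehydrogenase, at 0.35 ± 0.24 (SE; p 0.186), which were -0.25 and 0.20 without vehicle replicate 2. Of the 21 genes of pyruvate fate, all tested, 7 were higher and 14 lower, with a median log2 fold change of -0.22. Mpc1, a subunit of the mitochondrial pyruvate carrier, was the 1 gene past the criteria, at 44.2, 65.9 and 44.5 CPM in the vehicle group and 35.9, 38.1 and 29.3 CPM in the insulin group, a log2 fold change of -0.58 ± 0.25 (SE; edgeR unadjusted p 0.0475). Its groups did not overlap, and it met the criteria in 8 of 17 alternatives. Its edgeR unadjusted p was 0.0628 without vehicle replicate 2, where the difference was -0.36, and 0.0821 to 0.167 when an insulin library was left out. With the GC offset Mpc1 was at -0.55 (edgeR unadjusted p 0.0256). With that offset and vehicle replicate 2 left out it was at -0.39 (p 0.0437). Mpc2, the other subunit, was at 138, 448 and 219 CPM in the vehicle group and 138, 153 and 127 CPM in the insulin group, with -0.95 ± 0.41 (SE; edgeR unadjusted p 0.0513), a difference that was -0.35 without vehicle replicate 2.

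Of the 23 regulators of liver sugar genes, all tested, 14 were higher and 9 lower, with a median log2 fold change of 0.13. The 1 gene past the criteria was Rora, a nuclear receptor of the clock and of metabolism, at 61.5 ± 26.1 CPM after vehicle and 35.6 ± 4.11 CPM after insulin (SD, n = 3 each), with -0.79 ± 0.32 (SE; edgeR unadjusted p 0.0414). It met the criteria in 6 of 17 alternatives, and its vehicle replicate 2 was at 89.8 CPM, without which it was -0.41 (p 0.0848). Its edgeR unadjusted p was 0.0512 without vehicle replicate 3 and 0.0698 to 0.127 when an insulin library was left out. Hif1a, the oxygen-sensing factor that drives glycolytic genes, followed at -0.66 ± 0.29 (SE; edgeR unadjusted p 0.0517), with groups that did not overlap. Its vehicle replicate 2 was at 88.5 CPM, without which the difference was -0.30, and with the GC offset it was -0.36.

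**Figure D3:**
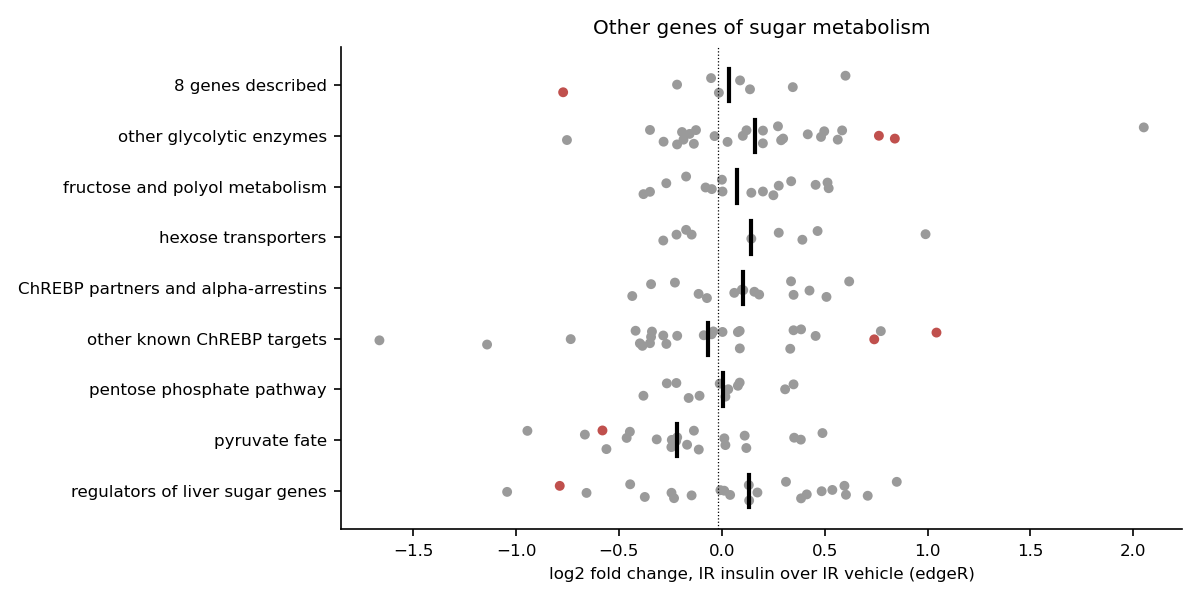
Log2 fold change of each tested gene, IR insulin over IR vehicle, from edgeR (horizontal axis), for the 8 genes and the 8 lists of other sugar genes (rows). Points are genes, red where the study's criteria were met, black bars are list medians and the dotted line is the median of all genes tested, -0.017; list medians lie between -0.22 and 0.16, and the point at 2.05 is Gapdh.

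Across the 8 genes, 4 were higher and 4 lower after insulin, and the median log2 fold change was 0.04 against -0.017 over all genes tested. The spread of the vehicle group was wide in the members and in all genes alike. The SD of log2 CPM was larger in IR vehicle for 7 of the 8 (85.2% of all genes tested), with a median of 0.593 in IR vehicle and 0.209 in IR insulin, close to the 0.518 and 0.182 of all genes. The lowest of the 6 libraries was vehicle replicate 2 for 7 of the 8, against 37.4% of all genes, and it was also paired with the highest value in vehicle replicate 3 for 4 of the 8, against 14.5% of all genes. The insulin range lay inside the vehicle range for the same 4, Gckr, Khk, Mlxipl and Txnip, as it did for 38.4% of all genes. Vehicle replicate 1 lay inside the insulin range for 6 of the 8, against 52.1% of all genes, vehicle replicate 3 for 1, against 29.3%, and vehicle replicate 2 for 0, against 15.9%. No test was made of these counts, since the members share the libraries.

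GC content went with part of this spread. Across the 8 genes, how far vehicle replicate 2 stood from the median over the other 5 had a Pearson's r of -0.67 and a Spearman's rho of -0.43 with GC content, a description over genes that share 1 library. Slc2a2 deviated by 0.94 on the log2 scale where the GC curve of all genes gave 0.64, and Pklr by -0.81 where the curve gave -0.72. Mlxipl deviated by -1.48 where the curve gave -1.05, while Khk and Pfkl were above it, Khk at -0.90 where it gave -1.48. Txnip and Gckr, near 48.3% GC, were low by -1.11 and -0.60 where the curve gave 0.06 for each, so their low values in that library were not on the curve. Pfkfb1 was also below it, at -0.62 where it gave 0.33. In vehicle replicate 3, Gckr, Slc2a2, Mlxipl, Khk and Txnip stood 0.40 to 0.82 above the median of the others, with the curve near 0. Periportal hepatocyte markers summed to 3142 CPM in vehicle replicate 3 and to 967 to 1216 CPM in the other 5 libraries, and pericentral markers to 12765 CPM in vehicle replicate 3 within a range of 10294 to 18643 CPM. Their part in these values was not tested.

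**Figure D4:**
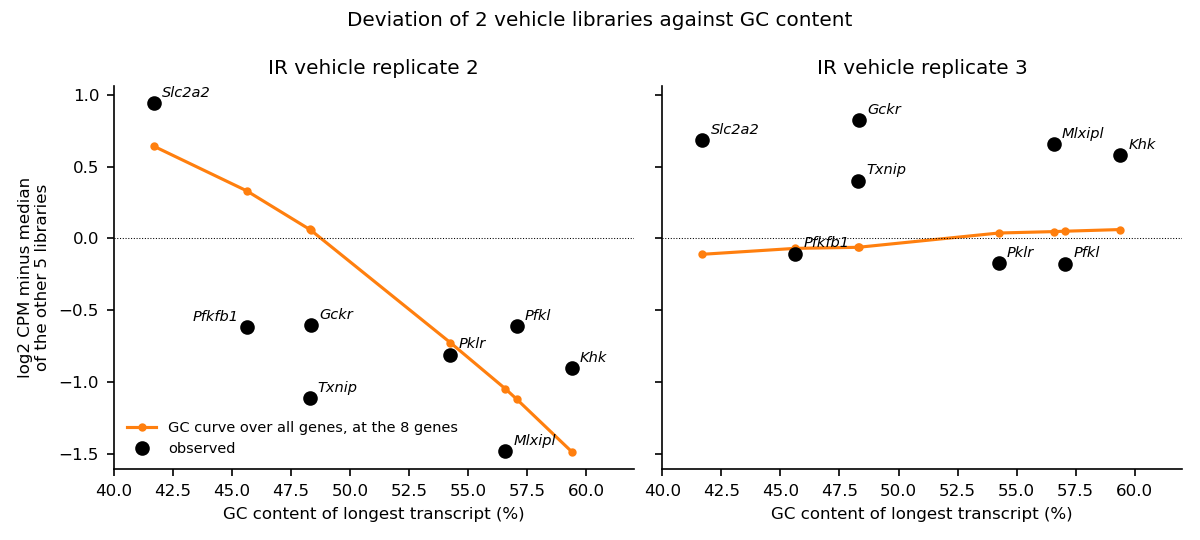
Log2 CPM of the 8 genes in vehicle replicate 2 (left) and vehicle replicate 3 (right) minus the median of the other 5 libraries (vertical axis), against the GC content of the longest transcript (horizontal axis), with the GC curve over all genes as an orange line. In replicate 2 the curve falls from 0.64 at Slc2a2 to -1.48 at Khk, with Txnip, Gckr and Pfkfb1 well below it, and in replicate 3 the curve is nearly flat while 5 genes lie at 0.40 or above.

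Levels were compared between genes as CPM per kilobase of the longest annotated transcript (RPKM). Khk was the most abundant in both groups, at 150 ± 71.4 RPKM in IR vehicle and 145 ± 19.1 RPKM in IR insulin (SD, n = 3 each), above Txnip in all 6 libraries. Txnip followed at 39.3 ± 17.2 and 41.8 ± 8.88 RPKM. In IR vehicle the order went on with Slc2a2 at 32.3, Gckr at 20.9, Pklr at 16.5, Pfkfb1 at 13.6, Mlxipl at 10.9 and Pfkl at 6.93 RPKM, and from Txnip downward no neighbours in this order differed beyond their SDs. In IR insulin Pklr came next, at 25.1 ± 5.79 RPKM, below Txnip beyond their SDs and above Slc2a2 in 3 of 3 libraries, although their SDs overlapped. There Slc2a2 was at 18.9 with Gckr just below it, Pfkfb1 at 14.9, Mlxipl at 10.8 and Pfkl at 8.81 RPKM, and the SDs of neighbours overlapped except between Mlxipl and Pfkl. The levels depend on the length used. With the union of exons as length, all means were lower and their order in each group was the same. In IR insulin Pfkfb1 was then at 9.95, Mlxipl at 7.07 and Pfkl at 4.92 RPKM.

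The gene whose log2 CPM was most like each member over the 6 libraries was found among 8870 genes with a mean of at least 5 CPM. By Pearson's r, a description over 6 points that include vehicle replicates 2 and 3, it was Maob for Slc2a2 (0.999), Aspg for Gckr (0.995), Emilin1 for Pfkl (0.999), Fbxo31 for Pfkfb1 (0.979), Rnf186 for Pklr (0.982), Eif1ad for Khk (0.997), Atp5d for Mlxipl (0.999) and mt-Cytb for Txnip (0.990). Many genes were alike at an r of at least 0.95: 526 for Mlxipl, 204 for Khk, 203 for Pfkl and 127 for Slc2a2, down to 19 for Pklr and 11 for Pfkfb1. The pattern of Pklr was thus shared by few genes, and that of Mlxipl, lowest in vehicle replicate 2 and highest in vehicle replicate 3, by many.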

How the data were processed

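Per the labels and the study's methods, liver RNA was extracted with Trizol, libraries were made with a NEBNext Ultra kit and sequenced on an Illumina HiSeq, and reads were aligned with Bowtie2 (2.2.3 in the submitters' processing notes) to mm10. The counter, its annotation and any use of strand are not given in the sources used here. Bowtie2 does not split reads across introns, so genes made of many short exons can be undercounted. The authors deposited whole-number read counts per gene for 6 libraries, neither normalized nor pooled. All 6 columns were used, and groups came from the sample titles. The study describes 3 biologically independent mice per group, so p values rest on the spread between mice. Nothing in the labels says more of the animals.

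The members, gene lists and tests were chosen with earlier results of these data known. The 2 groups were compared by edgeR 4.0.16 (R 4.3.3; glmQLFit and glmQLFTest, TMM, no covariate) after filterByExpr (minimum count 10, minimum total 15), with Benjamini-Hochberg adjustment over 13377 genes. SEs were derived from the F statistic. The study's criteria were a log2 fold change of 0.35 or more in size and an unadjusted p below 0.05. The authors had used DESeq2, which was an alternative here (1.42.0), as was voom of limma (3.58.1), always run with sample quality weights. Values by voom thus combine another test with a reweighting of the libraries. Other alternatives were RLE, upper-quartile scaling, library totals, filters on low counts, a replicate block, a loess offset for GC content (span 0.5) and leaving out each library. The pipeline was run on simulated data with 200 changed genes. The simulation had less spread between replicates than these data and no library that departed with GC content. It checks the code and not the power in these libraries. Of each list, genes past the criteria and the 2 with the smallest p were named. Coordinates, transcript length and GC content came from GENCODE M21 (GRCm38), in which 54409 identifiers (99.8%) were found, and promoter windows from RefSeq. Exact permutation tests were left out, since with 3 samples per group their smallest two-sided p is 0.1.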

Additional observations from a re-analysis of the deposited data

How the results depend on the processing

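The number of genes past the study's criteria was 383 by edgeR. It was 507 by DESeq2, 742 with no filter on low counts and 213 by voom. When each library was left out in turn it was 99 to 1349 (1349 without vehicle replicate 1, 888 without vehicle replicate 3, 99, 143 and 120 without insulin replicates 1, 2 and 3). The count at an adjusted p under 0.05 was 0 in every alternative. The 1 member past the criteria became 0 with library totals, by voom, with the GC offset and with the replicate block and GC offset together, and 0 to 1 when libraries were left out, with 0 without vehicle replicates 2 and 3 and insulin replicates 1 and 3. Of the 8 members, Slc2a2 and Pklr kept their direction in all 17 alternatives. Signs turned for Pfkl with the GC offset (-0.10) and with the block and GC offset (-0.069), for Khk with library totals (0.090), and for Mlxipl with library totals (0.12), upper-quartile scaling (0.011) and no filter (0.014). With vehicle replicate 2 left out and the GC offset applied, chosen after seeing the data, Pfkfb1 was at -0.043 and Txnip at -0.25. When libraries were left out, log2 fold changes ran from -0.48 to 0.24 for Gckr, -0.035 to 0.32 for Pfkfb1, -0.35 to 0.34 for Khk, -0.40 to 0.44 for Mlxipl and -0.21 to 0.41 for Txnip. The cause of these shifts was not tested. Same-numbered vehicle and insulin libraries deviated together at correlations of -0.039, 0.069 and 0.017, and differently numbered ones at -0.11 to 0.089. With 3 libraries per group, 1 of which departed with GC content, these values cannot decide whether the numbers pair the samples. The labels do not say. A replicate block gave 321 genes past the criteria, 118 of them lower and 203 higher (63.2% higher), gave 4 of the listed ChREBP targets past them in place of 2, and turned Khk to 0.058 and Mlxipl to 0.18.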

Other observations

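The ratio of Pklr to Slc2a2 within a library, which no scaling of libraries can change, was computed after the opposite directions of the 2 genes had been seen and is given with no test. In RPKM it was 0.942, 0.280 and 0.520 in IR vehicle replicates 1, 2 and 3 and 1.41, 1.40 and 1.15 in IR insulin replicates 1, 2 and 3. Every insulin library was above every vehicle library. Choosing the pair for its opposite directions favours such a separation, so it adds no evidence to the values of each gene. No other pair was computed for comparison. The genes differ in GC content, 54.2% and 41.7%, and vehicle replicate 2, the lowest, is the library that departed from the others with GC content.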
